A study of Mus musculus with 9 samples.

Results

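The stefin A cluster of the mouse was described here through 4 of its genes, Stfa1, Stfa2, Stfa2l1 and Stfa3. They were chosen by gene symbol, and are 4 of the 31053 genes of the count matrix. RNA was sequenced from single cells of the femur marrow of 9 female mice, aged 9 to 10 weeks, with 1 library per mouse. There were 3 inbred New Zealand Black (NZB) mice, 3 inbred New Zealand White (NZW) mice, and 3 NZBWF1 mice, the F1 hybrid of these strains. None was treated, and all were bought from one supplier. NZBWF1 females are a spontaneous model of systemic lupus erythematosus, and at this age they were compared with their parent strains rather than with a strain free of autoimmune disease.

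Stefins are small inhibitors of papain-like cysteine proteases, the cathepsins. They lack a signal peptide, and so act mainly in the cytosol, where they bind cathepsins that leak from lysosomes or granules. The mouse genome carries a cluster of closely related stefin A genes where humans have a lone gene, CSTA, and several of the mouse genes are known from neutrophils and their precursors in the bone marrow. Neutrophils are short-lived granulocytes that divide as precursors, fill granules in order as they mature, and leave the marrow once mature.

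In the mm10 assembly (GRCm38) all 4 genes lie on chromosome 16, within 298.6 kb, and each has 3 exons in the GENCODE vM21 annotation. Stfa2l1 (ENSMUSG00000059657, chr16:36156811-36161953) and Stfa1 (ENSMUSG00000071562, chr16:36276951-36285373) are on the plus strand. Stfa2 (ENSMUSG00000022902, chr16:36403992-36408457) and Stfa3 (ENSMUSG00000054905, chr16:36450537-36455392) are on the minus strand. The matrix holds 6 further stefin A-like genes of the cluster, namely BC100530, BC117090, Gm5483, Gm5416, 2010005H15Rik and Csta1.

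The promoters of all 4 genes are shown. Of these genes, Stfa2, Stfa2l1 and Stfa3 rose together between cell stages, and Stfa1 was not tested. The sequences are from RefSeq (GRCm38.p6), on the strand of each gene and 5′ to 3′. The first set covers the 30 bases from 40 to 11 bases before each RefSeq start, where a core promoter usually has its TATA box. In all 4 genes this window holds the run TTTAAA, which reads the same on both strands and is in capitals. The windows are chr16:36277108-36277137 for Stfa1, chr16:36408374-36408403 for Stfa2, chr16:36156771-36156800 for Stfa2l1 and chr16:36455403-36455432 for Stfa3.
Stfa1: ttcggataccTTTAAAaccctgagtctcag
Stfa2: ttacagaaaccTTTAAAaccctgagtctct
Stfa2l1: agaaaccTTTAAAaccctgagtctctttgc
Stfa3: cagataaccTTTAAAaccccgagtctcagt
The run began 30 bases before the start in Stfa1, 29 in Stfa2, 33 in Stfa2l1 and 31 in Stfa3. TTTAAA lies in the same window of 1.56% of the 32851 RefSeq promoters of the table, and in the 250 bases upstream of 12.1%.

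For Stfa2l1 (chr16:36156561-36156810) and Stfa3 (chr16:36455393-36455642), whose starts are the same in both annotations, the whole 250 bases upstream are given with the same capitals, to show how alike the promoters are outside that run.
Stfa2l1: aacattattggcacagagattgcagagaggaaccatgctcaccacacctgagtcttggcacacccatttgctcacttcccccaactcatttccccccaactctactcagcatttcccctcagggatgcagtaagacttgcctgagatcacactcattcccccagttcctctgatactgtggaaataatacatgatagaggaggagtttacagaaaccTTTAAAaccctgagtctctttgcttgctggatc
Stfa3: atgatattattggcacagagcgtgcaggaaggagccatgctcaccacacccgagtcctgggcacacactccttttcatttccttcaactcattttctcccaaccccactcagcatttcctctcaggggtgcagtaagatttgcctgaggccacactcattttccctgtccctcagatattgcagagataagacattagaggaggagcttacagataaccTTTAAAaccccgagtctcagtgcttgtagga
Over these 250 bases the identity of Stfa2 and Stfa2l1 was 89.4%. The identity of the other pairs of members was between 80.2% and 83.1%. With promoters this alike, a run found in several members, such as TTTAAA, is not a set of independent matches. TATAAA was found in no member and in 12.4% of all promoters. GAGGAA, a core that PU.1 can bind, had 2 matches in Stfa2l1 and 1 in each other member, against at least 1 match in 23.3% of all promoters (both strands searched). TTGCNNAA, a form of the C/EBP site, had 1 match in Stfa1 and 0 in the other members, against 9.56% of all promoters. These matches describe the letters, and binding was not measured.

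The transcripts are similar too, which limits how the counts divide between the genes. Of the 50-base stretches in the last 300 bases of the transcript, where 3′ reads fall, 35.5% in Stfa1, 25.1% in Stfa2 and 24.3% in Stfa2l1 also occur in the transcript of another gene. Over the whole transcript, the genes that share stretches are BC100530 and BC117090 for Stfa1, Stfa2l1, Gm4758 and Gm49652 for Stfa2, and Stfa2 and Gm49652 for Stfa2l1. In the last 300 bases the gene that shares most is BC100530 for Stfa1, Stfa2l1 for Stfa2 and Stfa2 for Stfa2l1. Stfa3 shares 0 of its 363 stretches. A read within a shared stretch cannot be given to either gene, so the counts of Stfa1, Stfa2 and Stfa2l1 are uncertain to that extent. How the NZB and NZW alleles, which differ from the reference genome, map to these genes was not tested.

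Of 68444 barcodes, 39051 (57.1%) passed the limits of at least 1000 UMIs (unique molecular identifiers, each 1 counted molecule), at least 500 genes and at most 10% mitochondrial UMIs. The libraries shared 557 barcodes. Cells were put into classes by the share of their UMIs that fell on marker panels without any stefin gene, and the 1835 cells (4.70%) that passed gates of unlike lineages were left out. The neutrophil class held 13068 cells, 891 to 1888 per mouse, with a median of 2182 to 2606 UMIs per cell and 2590101 to 4974162 UMIs per mouse. The neutrophil panel (such as Ltf, Camp, Ngp and S100a8) took between 43.5% and 48.5% of UMIs in that class. The B cell, T cell, erythroid and monocyte panels each took less than 0.03%. The gates use these same panels, so the values follow in part from the gating and are no separate check of the label. The neutrophils were split into 3784 dividing cells, 4031 mature cells, with at least 0.8% of UMIs on Retnlg, Mmp8, Mmp9, Cxcr2, Il1b, Ccl6 and Csf3r, and 5253 immature cells, which were neither. The mature gate cuts a continuous range. Of the 9284 neutrophils that were not dividing, 2775 (29.9%) had a share within 2-fold of it.

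The members were neutrophil genes of low abundance in this marrow, and they differed widely in level. Levels are counts of a gene per 1000000 UMIs of the class in a mouse (CPM), and since 1 UMI stands for 1 molecule tagged at its 3′ end, they are compared between genes without division by length. In the neutrophil class Stfa2l1 was highest, with a mean of 41.7 ± 20.8 CPM (SD, n = 9 mice) and 1473 UMIs in all. Stfa3 followed with 22.2 ± 10.5 CPM (822 UMIs) and Stfa2 with 18.2 ± 16.3 CPM (672 UMIs), 2 means that lay within 1 SD of each other. Stfa1 was at 0.708 ± 0.884 CPM, from 27 UMIs in 27 cells, and did not pass the filter on low counts in any comparison. With at least 2000 UMIs and 1000 genes per cell the means were lower, at 20.3 CPM for Stfa2l1, 11.3 CPM for Stfa3 and 7.68 CPM for Stfa2.

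Few cells carried a UMI of any member. Stfa2l1 was found in 782 neutrophils (5.98%), Stfa3 in 404 (3.09%) and Stfa2 in 276 (2.11%). In B cells, which should lack these genes, the shares were 0.116%, 0.0643% and 0.0129%, with a median depth of 1317 to 1853 UMIs per cell. Single neutrophils reached 14 UMIs of Stfa2, 14 of Stfa3 and 10 of Stfa2l1. The UMIs that free RNA would give to the neutrophil class, taken from barcodes below 100 UMIs of the same mouse, came to 7.06 for Stfa2l1, 2.67 for Stfa3 and 2.87 for Stfa2, far below the UMIs counted.

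**Figure D1:**
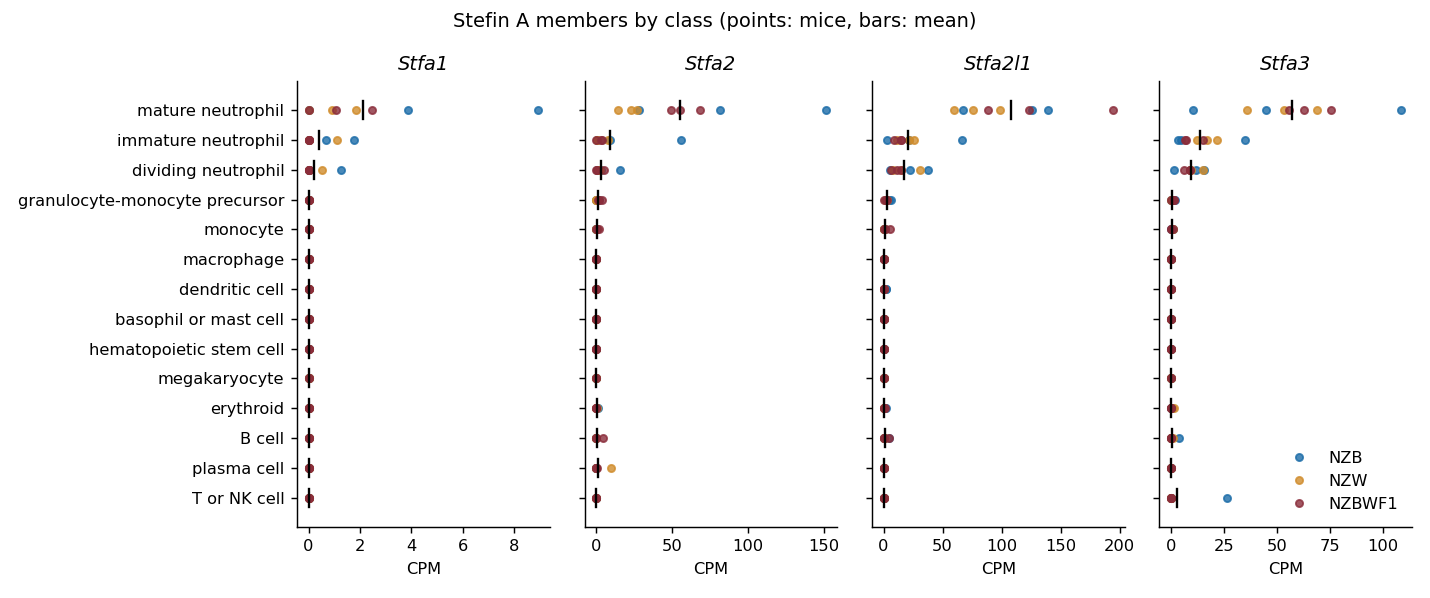
Level of each member in CPM (horizontal axis) by marker-gated class of bone marrow cells (vertical axis). Points are all mice with cells of the class, including those with fewer than 10, and bars are their means. Stfa2, Stfa2l1 and Stfa3 stand in the neutrophil classes, highest in mature neutrophils (means of 55.4, 108.1 and 57.4 CPM), and Stfa1 lies near 0 throughout.

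Outside the neutrophil class the members were sparse, and no member passed the filter on low counts in any of the other classes fitted. Granulocyte-monocyte precursors, the progenitors that give rise to neutrophils, held 44 UMIs of Stfa2l1, 16 of Stfa2 and 12 of Stfa3 in 2969 cells, against 1.78, 0.831 and 0.729 expected from free RNA. These UMIs were in 49 cells, whose median share of UMIs on the neutrophil panel was 9.49%, against 0.138% in precursors without a member. The precursors that carried a stefin A gene were thus cells with a high neutrophil panel share. Cells that passed both the neutrophil gate, at 5% of UMIs, and the precursor gate were put in the precursor class. The median of these 49 cells was above that 5%, so the precursors with a member are not apart from the neutrophil gate. The precursor class as a whole had a mean of 5.13% of UMIs on this panel, against 45.3% in the neutrophil class. The part of doublets in these counts was not tested.

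Monocytes, which arise from the same precursors, had 7 UMIs of Stfa2l1, 6 of Stfa3 and 3 of Stfa2 in 4377 cells, against 2.50, 0.921 and 0.889 expected from free RNA. B cells had 17 UMIs of Stfa2l1, 9 of Stfa2 and 5 of Stfa3 in 7777 cells, against 3.86, 0.918 and 1.29 from free RNA. All 9 of Stfa2 were in 1 cell. The 14 B cells with a member had a median of 0.764% of UMIs on the neutrophil panel, against 0.0703% in the others. The same medians were 0.138% and 0.124% in monocytes, 0.164% and 0.0546% in erythroid cells, and 0.643% and 0.0688% in dendritic cells. In T or NK cells the 1 cell with a member had 0.0276%, against a median of 0.0728% in the others. Erythroid cells had 13, 6 and 4 UMIs of Stfa2l1, Stfa2 and Stfa3 in 2004 cells, against 1.17, 0.498 and 0.480 from free RNA. T or NK cells had 3 of Stfa3, in 1 cell, against 0.176. Dendritic cells had 2 of Stfa2l1, against 0.948, and plasma cells 2 of Stfa2, against 0.0732. Counts above those expected from free RNA were thus not limited to monocytes. All members were at 0 in 66 macrophages, 125 basophils or mast cells, 38 cells of the hematopoietic stem cell gate and 46 megakaryocytes, which allows a share of cells with a UMI of up to 4.55%, 2.40%, 7.89% and 6.52%. The stem cell label is weak. In the 1 mouse with at least 10 cells of that gate, 5 of the 6 genes of its panel were at 0. Stfa1 had 0 UMIs in every class outside the neutrophils, which allows a share of up to 0.0685% in monocytes and 0.0386% in B cells. These limits cover counting error only.

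The members were first compared between stages of maturation. Stfa2, Stfa2l1 and Stfa3 were all higher in mature than in immature neutrophils of the same mice, by 6.04-fold, 4.77-fold and 4.01-fold. Stfa2l1 in mature neutrophils was 139, 125.4 and 67.4 CPM in NZB replicates 1 to 3, 98.6, 75.7 and 60.0 CPM in NZW replicates 1 to 3, and 194.6, 123.3 and 88.7 CPM in NZBWF1 replicates 1 to 3. In immature neutrophils it was 21.8, 66.1 and 2.80 CPM in NZB, 21.4, 11.8 and 26.2 CPM in NZW, and 9.30, 14.5 and 14.5 CPM in NZBWF1. Every mouse was higher in the mature stage, and of the immature values NZB replicate 2 alone reached the lowest mature value.

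Stfa2 in mature neutrophils was 81.7, 151.1 and 28.0 CPM in NZB, 27.0, 14.8 and 23.2 CPM in NZW, and 68.1, 49.3 and 55.1 CPM in NZBWF1. In immature neutrophils it was 9.46, 55.6 and 0.700 CPM in NZB, 7.87, 0.695 and 0.623 CPM in NZW, and 0, 3.63 and 3.48 CPM in NZBWF1. Again every mouse was higher in the mature stage, and NZB replicate 2 was the highest mouse in each stage. Its immature level came from 95 UMIs in 30 of 734 cells, at most 11 in a cell.

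Stfa3 in mature neutrophils was 44.7, 108.6 and 10.4 CPM in NZB, 68.8, 53.5 and 35.8 CPM in NZW, and 75.7, 62.9 and 55.9 CPM in NZBWF1. In immature neutrophils it was 4.73, 35.1 and 3.50 CPM in NZB, 21.9, 12.5 and 16.8 CPM in NZW, and 15.1, 7.26 and 6.38 CPM in NZBWF1. NZB replicate 3 was the lowest mouse for Stfa3 in both stages, and NZB replicate 2 the highest. Stfa1 had 17 UMIs in mature and 6 in immature neutrophils, and it was not tested.

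**Figure D2:**
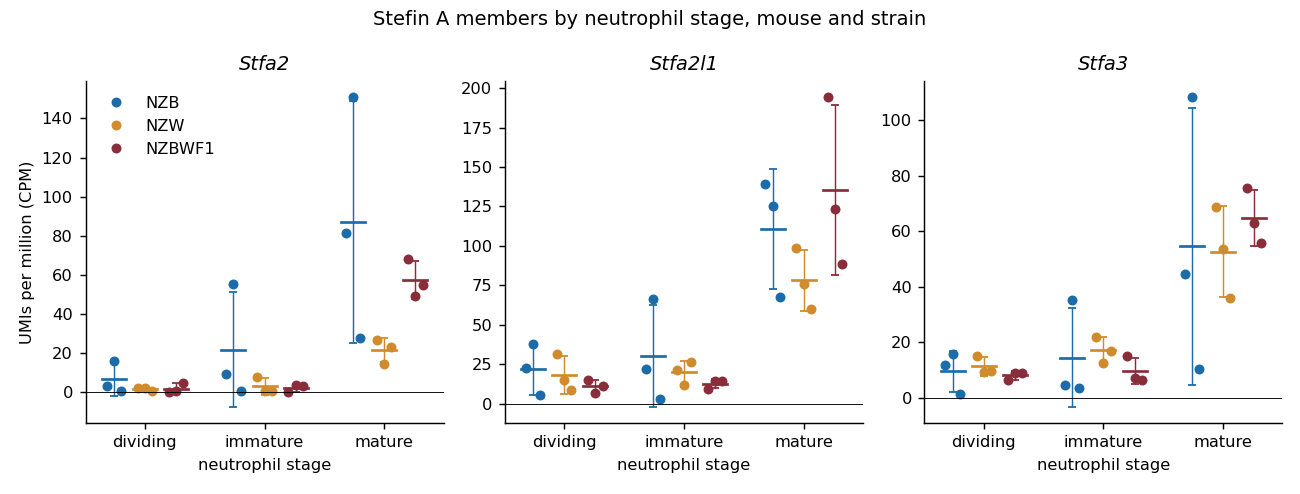
Level in CPM (vertical axis) of Stfa2, Stfa2l1 and Stfa3 in dividing, immature and mature neutrophils (horizontal axis). Points are single mice coloured by strain, and bars give the mean ± SD of 3 mice. The mature stage is the highest for Stfa2, Stfa2l1 and Stfa3 in each strain, and the NZB mice span 28.0 to 151.1 CPM for Stfa2 in that stage.

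In edgeR's quasi-likelihood test with the mouse as a block, the log2 difference between mature and immature neutrophils was 2.59 (SE 0.40, adjusted p = 0.00046) for Stfa2, 2.25 (SE 0.33, adjusted p = 0.000322) for Stfa2l1 and 2.01 (SE 0.17, adjusted p = 1.01e-09) for Stfa3. All 3 members tested were called higher, where 30.0% of the 5282 genes tested were called higher, and their median of 2.25 stood beside -0.00 over all genes. Mature cells were shallower, with a median of 1730 to 2080 UMIs per cell against 2082 to 2869 in immature cells. The part of depth in the difference was not tested. When each mouse was left out in turn, the difference was between 2.44 and 3.51 (without NZB replicate 2) for Stfa2, 2.08 and 2.62 for Stfa2l1, and 1.90 and 2.13 for Stfa3.

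Dividing and immature neutrophils had lower levels than mature ones. Means over 9 mice in dividing cells were 17.0 ± 11.2 CPM for Stfa2l1, 9.62 ± 4.34 for Stfa3 and 3.38 ± 5.01 for Stfa2, and in immature cells 20.9 ± 18.4, 13.7 ± 10.1 and 9.11 ± 17.7. For each member the means of dividing and immature cells differed by less than the SD in immature cells, where NZB replicate 2 was the highest mouse. In mature cells the means were 108.1 ± 42.5, 57.4 ± 27.3 and 55.4 ± 42.3 CPM. The share of cells with a UMI was also highest in mature cells. In dividing, immature and mature cells it was 3.91%, 3.41% and 11.3% for Stfa2l1, 2.70%, 2.08% and 4.79% for Stfa3, and 1.08%, 1.05% and 4.47% for Stfa2. These shares are not thinned to a common depth, and the median depth was 3213 to 5138 UMIs per cell in dividing cells, so no order of dividing and immature cells is read from them.

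The levels were also followed along maturation, with the neutrophils that were not dividing ordered by the share of UMIs on the mature panel. Stfa2l1 stayed between 15.7 and 26.8 CPM in the 4 bins below 0.8%, and was 54.7, 91.2 and 196.2 CPM in the bins from 0.8% to 1.6%, from 1.6% to 3.2% and above 3.2%. Stfa2 was between 3.87 and 17.2 CPM below 0.8%, then 26.6, 42.5 and 111.6 CPM. Its NZB mean was already 50.4 CPM in the bin from 0.1% to 0.2%, above the 45.1 CPM of the bin from 0.8% to 1.6%. In the former bin NZW was at 1.297 CPM and NZBWF1 at 0, and the SD over the 9 mice was 41.7 CPM. Over all immature neutrophils NZB replicate 2 had 95 UMIs of Stfa2, against 10 and 1 in NZB replicates 1 and 3. The NZB mean of that bin thus need not stand for each NZB mouse. Stfa3 was between 10.3 and 19.4 CPM below 0.8%, then 47.0, 45.8 and 91.7 CPM. The means of all 3 over the 9 mice were highest in the last bin. By strain this did not hold for Stfa3 in NZB, which was at 58.0, 46.9 and 48.5 CPM in the last 3 bins, against 26.6, 42.0 and 131.6 CPM in NZW and 56.5, 48.4 and 95.2 CPM in NZBWF1. These bins are a description and were not tested.

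**Figure D3:**
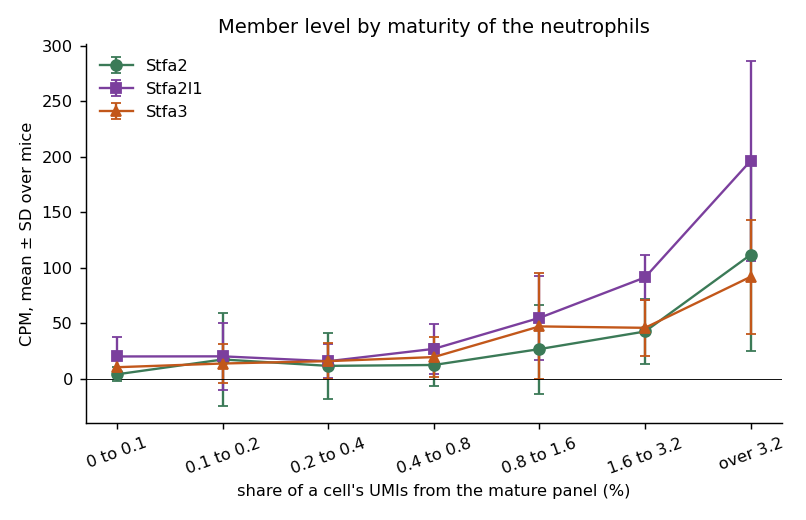
Mean level in CPM ± SD over 9 mice (vertical axis) of Stfa2, Stfa2l1 and Stfa3 in neutrophils that were not dividing, in 7 bins of the percent of UMIs on the mature panel (horizontal axis). Stfa2l1, Stfa2 and Stfa3 have lower means in the first 4 bins than in the last 3, and reach 196.2, 111.6 and 91.7 CPM in the last.

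Of the 6 other stefin A-like genes of the cluster, BC100530 was the most abundant, at 197 ± 129 CPM in the neutrophil class, and made up 45.5% to 68.1% of the UMIs of the 10 cluster genes in a mouse, against 8.33% to 18.5% for Stfa2l1. Of the 6 genes, 3 passed the filter, and all 3 were called higher in mature neutrophils, where 30.0% of all genes were. The log2 difference was 1.76 (SE 0.27) for BC100530, 1.76 (SE 0.21) for BC117090 and 3.76 (SE 0.49) for Gm5483. Gm5416 had 25 UMIs in all neutrophils, and 2010005H15Rik and Csta1 had 0. Gm5483 had the largest difference of the 3 tested, from 10.9 ± 16.1 CPM in immature to 171 ± 41.4 CPM in mature neutrophils.

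Cathepsins, the targets of stefins, were compared over the same stages. Of 11 cysteine cathepsins and legumain in the matrix, 6 were tested, and 3 were called higher in mature neutrophils, where 30.0% of all genes were called higher and 29.3% lower. They were Ctsl (log2 difference 1.22), Ctss (0.77) and Ctsc (0.60), which encodes the protease that activates neutrophil serine proteases. Ctsh was called lower (-0.18), and 2 were not called. Other cystatins were called higher by smaller amounts, with 0.35 for Cstb, the cytosolic stefin B, and 0.57 for Cst3, the secreted cystatin C, as the 2 tested of 12. The median log2 difference was 0.35 over the cathepsins tested and 2.25 over the members.

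The serine proteases of primary granules, which stefins do not inhibit, were lower in mature neutrophils, with Elane at -2.62, Prtn3 at -2.13 and Mpo, the myeloperoxidase on the same list, at -1.14 on the log2 scale, as 3 of 3 tested. Of 5 other protease inhibitors tested, Wfdc17 (2.76), Timp2 (1.81) and Slpi (0.58) were higher, while Serpinb1a (-0.75) and Wfdc21 (-0.18) were lower. Of 9 genes of secondary and tertiary granules tested, 4 were higher and 5 lower, and 59.3% of all genes were called in either direction. Mmp8 and Mmp9 of this list also set the mature gate, so any change of theirs was given by it. Among genes raised in mature neutrophils, 13 of 15 were higher, but several of these set the gate, so their change was given by it. Of the 26 genes within 1 Mb of the cluster, 7 were tested and 4 called higher, by at most 0.94 (Parp14), less than any member.

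Strain was the next comparison, since the study set the hybrid beside its parents. In the whole neutrophil class the members had these levels. Stfa2 was 32.1, 53.9 and 7.53 CPM in NZB replicates 1 to 3, 10.3, 3.30 and 5.53 CPM in NZW, and 24.3, 10.3 and 16.9 CPM in NZBWF1. NZB replicates 1 and 2 were above every NZW mouse, whereas NZB replicate 3 lay inside the NZW range. Stfa2l1 was 62.0, 63.1 and 19.99 CPM in NZB, 43.2, 22.1 and 26.3 CPM in NZW, and 77.2, 30.2 and 31.5 CPM in NZBWF1. Stfa3 was 20.5, 39.0 and 4.41 CPM in NZB, 30.3, 16.5 and 18.0 CPM in NZW, and 34.0, 17.5 and 19.7 CPM in NZBWF1. The strains overlapped for Stfa2l1 and Stfa3.

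The make-up of the neutrophils differed between mice. Mature cells were 47.1%, 23.4% and 32.4% of neutrophils in NZB replicates 1 to 3, 35.2%, 17.9% and 30.1% in NZW, and 51.2%, 22.6% and 34.1% in NZBWF1. Replicate 1 had the largest and replicate 2 the smallest share in each strain. The tests of the mature share below take the mice as unpaired, and the last section gives a fit with the replicate number as a block. In NZW and NZBWF1 replicate 1 had both the largest mature share and the highest levels of Stfa2, Stfa2l1 and Stfa3, whereas in NZB the highest levels were in replicate 2, which had the smallest mature share. The part of the mature share in the levels of the whole class was not tested, and the stages are therefore given apart. The mature share had means of 34.3 ± 12.0% in NZB, 27.8 ± 8.87% in NZW and 36.0 ± 14.4% in NZBWF1 (two-sided exact permutation test over the 3 strains, p = 0.664, n = 3 mice each). In edgeR the log2 difference of the hybrid from its parents was 0.22 (adjusted p = 0.787), but with at least 2000 UMIs and 1000 genes per cell it was 0.88 (adjusted p = 0.00767).

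Between the parents, the largest estimate among the members was that of Stfa2, and it did not pass the test over all genes. In the neutrophil class Stfa2 had a mean of 31.2 ± 23.2 CPM in NZB mice, 6.36 ± 3.55 CPM in NZW mice and 17.1 ± 7.03 CPM in the hybrid. The log2 difference of NZB against NZW was 2.44 (SE 0.79), 5.43-fold, with an unadjusted p = 0.0178 and an adjusted p = 0.114 in edgeR. For Stfa2l1 it was 0.81 (SE 0.60, adjusted p = 0.491), and for Stfa3 0.16 (SE 0.67, adjusted p = 0.925). So 0 of the 3 members tested were called, 1 had an unadjusted p below 0.05, and 10.7% of all genes were called. In DESeq2, which called 6.76% of genes, Stfa2 was called, with a log2 difference of 2.45 and an adjusted p = 0.0300.

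Within mature neutrophils the NZB and NZW mice did not overlap for Stfa2, but the gap was narrow. The lowest NZB mouse, replicate 3, was at 28.0 CPM and the highest NZW mouse, replicate 1, at 27.0 CPM. Over all their neutrophils these mice had 29 and 47 UMIs of Stfa2, so counting error can exceed this gap. Every NZBWF1 mouse, from 49.3 CPM, was above every NZW mouse and inside the NZB range. The log2 difference of NZB against NZW was 2.10 (SE 0.65, unadjusted p = 0.0158, adjusted p = 0.125) for Stfa2, 0.67 (SE 0.43, adjusted p = 0.481) for Stfa2l1 and 0.20 (SE 0.72, adjusted p = 0.934) for Stfa3 in edgeR. Thus 0 of 3 members were called, 1 had an unadjusted p below 0.05, and 8.13% of genes were called. With the replicate number as a block Stfa2l1 was called, where 11.9% of genes were, as given in the last section. DESeq2 called Stfa2, with a log2 difference of 2.18 and an adjusted p = 0.00018, where it called 3.12% of genes.

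The value for Stfa2 in edgeR moved with single libraries, and its call with NZB replicate 3. Without NZB replicate 3, the log2 difference of Stfa2 between NZB and NZW was 2.93 (adjusted p = 0.00284) in the neutrophil class, where 6.82% of genes were called, and 2.54 (adjusted p = 5.2e-06) in mature neutrophils, where 5.60% were called. Without NZB replicate 2 the difference was 1.78 (adjusted p = 0.297) in the neutrophil class and 1.48 (adjusted p = 0.127) in mature neutrophils, and Stfa2 was not called. Without NZW replicate 1 it was 3.04 (adjusted p = 0.123) in the neutrophil class. NZB replicate 3 was the lowest of the 3 NZB mice for Stfa2, Stfa2l1 and Stfa3 in each stage. The NZB mice themselves thus spanned 28.0 to 151.1 CPM for Stfa2 in mature neutrophils, whereas the NZW mice spanned 14.8 to 27.0 CPM.

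In immature neutrophils 0 of 3 members were called between NZB and NZW in edgeR, 0 had an unadjusted p below 0.05, and 8.46% of genes were called. The log2 difference was 2.96 (SE 1.43, adjusted p = 0.323) for Stfa2, 0.83 (SE 0.84, adjusted p = 0.677) for Stfa2l1 and 0.03 (SE 0.77, adjusted p = 0.991) for Stfa3. The NZB mean rested on replicate 2 in this stage. Without it Stfa3 was lower in NZB, with a log2 difference of -1.92 (adjusted p = 0.00886), where 6.44% of genes were called. In dividing neutrophils, where Stfa2 did not pass the filter, 0 of 2 members were called, 0 had an unadjusted p below 0.05, and 9.34% of genes were called. The log2 difference there was 0.47 (SE 0.72, adjusted p = 0.783) for Stfa2l1 and -0.05 (SE 0.48, adjusted p = 0.969) for Stfa3. DESeq2 also called 0 members in either stage.

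The mean of the hybrid was between those of its parents for Stfa2 in the neutrophil class and in mature neutrophils. For Stfa2l1 and Stfa3 it was above both parents in mature neutrophils, at 135.6 ± 54.0 and 64.8 ± 10.1 CPM, and below both in immature neutrophils, at 12.8 ± 3.01 and 9.58 ± 4.80 CPM, with overlapping mice in each case. Against the mean of NZB and NZW, the log2 difference in the neutrophil class was 0.05 (SE 0.66, adjusted p = 0.991) for Stfa2, 0.06 (SE 0.52, adjusted p = 0.986) for Stfa2l1 and -0.08 (SE 0.59, adjusted p = 0.983) for Stfa3 in edgeR. In mature neutrophils it was 0.23 (SE 0.53, adjusted p = 0.960), 0.39 (SE 0.35, adjusted p = 0.882) and 0.13 (SE 0.59, adjusted p = 0.981) in the same order. When each mouse was left out in turn, these 3 estimates ranged from 0.013 to 0.543, from 0.012 to 0.643 and from -0.127 to 0.590. No member was called in the neutrophil class, or in dividing, immature or mature neutrophils, by edgeR or by DESeq2, and 0 had an unadjusted p below 0.05. The shares of all genes called by edgeR were 0.343%, 0.439%, 0.322% and 0.345%.

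In dividing and immature cells the estimates for the hybrid were below the parental mean. They were -1.16 (SE 0.75) for Stfa2l1 and -0.46 (SE 0.45) for Stfa3 in dividing cells. In immature cells they were -1.75 (SE 1.69) for Stfa2, -1.05 (SE 0.84) for Stfa2l1 and -1.08 (SE 0.78) for Stfa3. Adjusted p-values were between 0.678 and 0.819, and the NZB replicate 2 level entered the parental mean of each.

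Against each parent alone, 0 of 3 members were called in the neutrophil class by edgeR, with 0 at an unadjusted p below 0.05 in either comparison. Of all genes, 3.02% were called against NZB and 1.12% against NZW. For Stfa2 the log2 difference was -1.17 (SE 0.70, adjusted p = 0.439) against NZB and 1.27 (SE 0.85, adjusted p = 0.744) against NZW, so the hybrid estimate was placed between the parents. For Stfa2l1 it was -0.35 and 0.46, and for Stfa3 -0.16 and 0.00. These comparisons share the NZBWF1 mice. DESeq2 also called 0 members in them, and Stfa1 alone had an unadjusted p below 0.05 there, with no adjusted p.

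In mature neutrophils the hybrid was set against each parent for Stfa2, where the NZBWF1 and NZW mice did not overlap. The log2 difference was 1.28 (SE 0.68, adjusted p = 0.854) against NZW, where 0.673% of genes were called, and -0.82 (SE 0.56, adjusted p = 0.549) against NZB, where 3.38% were called. Neither passed the edgeR test or DESeq2. Without NZB replicate 3 both passed in edgeR, with 1.28 (adjusted p = 0.0393) against NZW, where 0.601% of genes were called, and -1.26 (adjusted p = 0.00715) against NZB, where 2.22% were called. The estimate against NZW did not move, and its standard error fell to 0.28, since all mice share 1 estimate of the spread. NZB replicate 3 was the lowest NZB mouse for Stfa2, and the fits without each other mouse are not given for these comparisons. In the whole neutrophil class 0 members were called against either parent when each mouse was left out in turn.

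**Figure D4:**
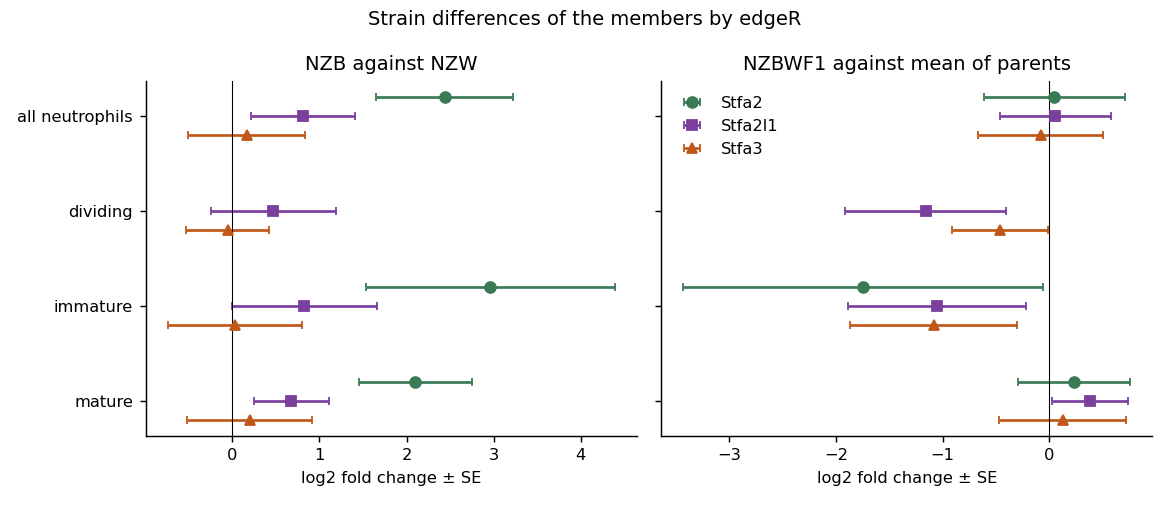
Log2 fold change ± SE (horizontal axis) of Stfa2, Stfa2l1 and Stfa3 for NZB against NZW and for NZBWF1 against the mean of its parents, in all, dividing, immature and mature neutrophils (edgeR). Stfa2 lies to the right for NZB against NZW, from 2.10 to 2.96, with errors of 0.65 to 1.43, and the other members lie between -1.16 and 0.83 with errors of 0.35 to 0.84.

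The difference between strains was also set against the stage. The strain-by-stage term asked whether the rise from immature to mature neutrophils differed between strains. Between NZB and NZW this term was -0.61 (SE 1.03) for Stfa2, -0.00 (SE 0.45) for Stfa2l1 and 0.38 (SE 0.33) for Stfa3 on the log2 scale. Of these, 0 were called by edgeR or DESeq2 and 0 had an unadjusted p below 0.05, where 0.568% of genes were called by edgeR. For NZBWF1 against the mean of its parents it was 1.85 (SE 1.06) for Stfa2, 1.28 (SE 0.75) for Stfa2l1 and 1.10 (SE 0.31) for Stfa3. The term of Stfa3 had an unadjusted p = 0.000764 but an adjusted p = 0.920. Here edgeR called 0 members and 0% of all genes, although 192 genes had an unadjusted p below 0.05, and DESeq2 called 0 genes.

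The share of mature neutrophils with a UMI gave the same order as the CPM for Stfa2. After each cell was thinned to 1000 UMIs, this share was 4.80 ± 2.98% for NZB, 1.53 ± 0.13% for NZW and 2.87 ± 0.43% for NZBWF1 (mean ± SD, n = 3). For Stfa2l1 it was 7.53 ± 2.20%, 5.93 ± 0.81% and 8.92 ± 2.16%, and for Stfa3 2.95 ± 2.14%, 3.26 ± 0.57% and 3.52 ± 0.68%. An exact permutation test over the 3 strains (two-sided, 1680 splits, n = 3 mice each) gave p = 0.114, 0.218 and 0.875 for Stfa2, Stfa2l1 and Stfa3. Adjusted over 8 such tests, p was between 0.349 and 0.975. The smallest p of this test is 0.00357, and a comparison of 2 strains cannot go below 0.1.

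Detection of members in the same cells was described in mature and immature neutrophils, pooled over mice whose levels differ, with no test. Of the 180 mature neutrophils with Stfa2, 25.6% also had Stfa2l1 and 21.1% Stfa3, against 10.6% and 4.02% of mature neutrophils without Stfa2. BC100530 was present in 65.0% against 21.1%. The median depth was 1895 UMIs in cells with Stfa2 and 1891 in those without. In immature neutrophils the 55 cells with Stfa2 had Stfa2l1 in 32.7% and Stfa3 in 38.2%, against 3.097% and 1.69% of the others. Of these 55 cells, 30 were from NZB replicate 2, the highest mouse of that stage. Stfa2 and Stfa2l1 share stretches of transcript, and the part of these in their overlap was not tested, while Stfa3 shares no stretch with another gene.

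The genes whose levels were most like the members' were listed from 6922 genes of at least 50 CPM in a class, by the Pearson correlation of log2 CPM over 102 points (14 classes by mouse). For Stfa2 they were Prok2 (r = 0.871), Stfa2l1 (0.859), Dhrs9 (0.845), AC110211.1 (0.818) and Upp1 (0.818). For Stfa2l1 they were BC100530 (0.926), Ceacam10 (0.920), 1700047M11Rik (0.916), 9830107B12Rik (0.915) and Dhrs9 (0.913). For Stfa3 they were BC100530 (0.904), Stfa2l1 (0.899), Scrg1 (0.897), Ceacam10 (0.890) and 1700047M11Rik (0.889). Prok2 encodes prokineticin 2, a secreted peptide of mature neutrophils, and Upp1 a uridine phosphorylase. For Stfa1, which rests on 27 UMIs, the closest was Stfa2 (0.738).

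Over the 27 points of 3 neutrophil stages by 9 mice, r was 0.901 between Stfa2 and Stfa2l1, 0.879 between Stfa2l1 and Stfa3, and 0.784 between Stfa2 and Stfa3. BC100530 had r = 0.927 with Stfa2, 0.923 with Stfa2l1 and 0.821 with Stfa3. These points share libraries, depth and stage, and the values are descriptions. In mature neutrophils BC100530 was 338.3, 1038.9 and 294.3 CPM in NZB, 347.7, 297.1 and 273.9 CPM in NZW, and 426.1, 500.5 and 337.7 CPM in NZBWF1. NZB replicate 2 was the highest mouse for BC100530 as for Stfa2 and Stfa3, whereas for Stfa2l1 NZBWF1 replicate 1 was the highest.

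In edgeR the other stefin A-like genes tested were, like the members, not called between the parents in the neutrophil class. In the neutrophil class the log2 difference of NZB against NZW was 1.25 (SE 0.55, adjusted p = 0.238) for BC100530, 1.74 (SE 0.55, adjusted p = 0.0750) for BC117090 and 0.89 (SE 0.29, adjusted p = 0.0907) for Gm5483 in edgeR. In this comparison, where 10.7% of all genes were called, 1 of 8 cathepsins tested was called, Ctsc, which was higher in NZB (1.47), and among the other cystatins 0 of 3. Of 7 other protease inhibitors, Wfdc17 was higher in NZB (2.83), while Serpinb2 (-1.49) and Wfdc21 (-0.57) were lower. Among 15 genes raised in mature neutrophils, S100a6 (1.24), Clec4d (1.45) and Clec4e (1.40) were higher in NZB. Of the granule genes, Lcn2 (0.71), Ngp (0.56) and Hp (0.85) were higher, as 3 of 9. Of the 12 chromosomal neighbours tested, 0 were called.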

How the data were processed

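Bone marrow of 9 mice was profiled as 1 10x 3′ library per mouse. Per the labels, the authors processed the reads with Cell Ranger 3.1.0 and bcl2fastq 2.20 against mm10, and deposited merged matrices of whole-number UMI counts that are not normalized. Any scaling of depth between libraries at the merging step was not given in the sources read here. The number after a barcode was taken as the order of the merged libraries, and 0 columns lacked a mapped mouse. The genes and lists described were chosen with earlier results of these data known.

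Cells were classed by gates on marker panels that hold no stefin gene. Doublets were handled only by leaving out cells that passed gates of unlike lineages. UMI counts were summed per mouse and class, and all genes that passed filterByExpr were tested with edgeR 4.0.16 (quasi-likelihood, TMM, robust, R 4.3.3), with Benjamini-Hochberg adjustment and 0.05 as the threshold. The standard error is the log2 difference divided by the square root of F. DESeq2 1.42.0, no filter, other gates and quality limits, subtraction of free RNA, removal of the deepest 5% of cells, summed members, a replicate block, and each mouse left out were tried as alternatives. The stage and strain-by-stage tests were refitted only with DESeq2, with doubled and halved gates, and without each mouse. Each mouse is a separate animal with 1 library, so p-values of the strain comparisons measure the spread between mice and their libraries. In the stage and strain-by-stage tests the mouse is a block. Those p-values measure how the stage difference varies between mice.

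Named are the 4 members in every class, genes of the lists that were called, the cluster genes, and the 5 genes most like each member. The fit was tested on simulated counts, drawn at random with the mean and spread of each gene in these samples. For NZB against NZW it called 72% of genes changed by a log2 of 1 and 99% of those changed by 2 in the neutrophil class (8863 genes), and 53.1% and 92.5% in mature neutrophils (5273 genes). Of the unchanged genes, 6 and 10 were called. The changed genes were picked at random over all levels. These rates therefore do not hold for genes as sparse and as uneven between mice as the members.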

Additional observations from a re-analysis of the deposited data

How the results depend on the processing

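All 3 members tested were called higher in mature neutrophils under DESeq2, under doubled and halved gates, and without each mouse. The strain results moved more. DESeq2 called 1 member between NZB and NZW in the neutrophil class and 1 in mature neutrophils, Stfa2 in each. Without 1 mouse the count was 0 to 1 in the neutrophil class, in immature and in mature neutrophils. Without the filter it was 1 in dividing neutrophils (Stfa2, 2.33, adjusted p = 0.0170, with 5.76% of genes called), and 1 for NZBWF1 against NZB (Stfa1, -2.70, adjusted p = 0.0436, with 3.57% of genes called). The sign of Stfa3 was not stable. NZB against NZW ranged from -0.66 to 0.67 in the neutrophil class and from -0.73 to 0.71 in mature neutrophils when each mouse was left out, and NZBWF1 against the parental mean from -0.13 to 0.59 in mature neutrophils. It was also -0.66 in the neutrophil class with at least 2000 UMIs and 1000 genes, and -0.21 in mature neutrophils with doubled gates. With at least 2000 UMIs and 1000 genes, which leaves fewer mature cells, the neutrophil level was 20.3 CPM for Stfa2l1 and 11.3 CPM for Stfa3, the thinned share of cells with a UMI was 1.77% and 0.982%, and the mature share was higher in NZBWF1 than in its parents (log2 0.88, adjusted p = 0.00767). Without thinning these shares of cells were 6.18% and 3.101%, against 3.58% and 1.70% thinned. The mature share of NZBWF1 against its parents was -0.12 to 0.47 without 1 mouse, and 0.22 with all. The causes of these shifts were not tested.

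The replicate numbers were not taken to pair the mice, since the labels do not tie them to a shared batch. Deviations from the group means correlated between same-numbered mice in the neutrophil class with r of 0.264 to 0.281 for number 1 and 0.272 to 0.292 for number 2, but -0.0814 to 0.0313 for number 3. Deviations within a group of 3 mice balance out, so the low r of number 3 cannot decide whether the numbers mark a batch, which was not tested. In that class each mouse numbered 1 or 2 correlated best with mice of its own number, and no mouse numbered 3 did. With the replicate block, 1599 genes rather than 963 were called between NZB and NZW in the neutrophil class, and 115 rather than 31 for NZBWF1 against the parental mean. Under the replicate block 1 member was called between NZB and NZW in mature neutrophils, Stfa2l1 (0.66, adjusted p = 0.00457), where 11.9% of genes were called, and the mature share differed between NZB and NZW (log2 0.30, adjusted p = 0.0376). Depth limits Stfa1, whose 27 UMIs in all neutrophils did not pass the filter.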
